A study of Mus musculus with 2 samples.

Results

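The growth hormone receptor and STAT5 axis of mouse liver was read here through 10 genes: the receptors Ghr and Prlr, the transcription factors Stat5a and Stat5b, the insulin-like growth factor (IGF) outputs Igf1 and Igfals, the feedback inhibitors Socs2 and Cish, and the transcriptional repressors Bcl6 and Cux2. Probe sets were taken where the platform annotation named 1 of these genes alone. This gave 24 of the 45101 probe sets on the array and 9 of the 18193 named genes. Prlr had no such probe set. Of the 24 probe sets, 18 exceeded a signal of 17.8 on both arrays, 3 on only 1 array and 3 on neither. That value, the floor, is the median signal over both arrays and stands in for detection. A probe set is called detected on an array where its signal exceeds it.

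RNA was measured on Affymetrix whole-genome arrays in liver of male mice aged 3 months, of 129Sv/C57BL6 background, fasted overnight. One group was a Tmprss6-deficient mouse (Tmprss6-/-), made by gene targeting, with 1 array. The other was a control mouse, with 1 array, whose genotype is given only as control. Tmprss6 encodes matriptase-2, a hepatocyte membrane protease that restrains the iron hormone hepcidin, and the arrays set a liver that lacks it beside one that has it. The labels name no promoter or Cre that would limit the deletion to a cell type, and do not say whether the animals were littermates. With 1 array per group no test is possible, each difference is one between these animals, and the number of arrays limits the precision. As an error, these data give only how far the log2 ratios of different probe sets of a gene scatter, which leaves out variation between animals. This spread, an SD, was 0.46 where the mean signal was 64 or less, 0.37 for 64 to 256, 0.32 for 256 to 1024, and 0.18 for brighter sets. Tmprss6 itself read 88.2 in the Tmprss6-deficient liver and 1866 in the control liver, 21.2-fold lower, and whether its probes lie in the targeted part was not analysed here. The hepatocyte marker Alb read 27887 in the Tmprss6-deficient liver and 29306 in the control liver.

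Pituitary growth hormone binds its receptor on hepatocytes, the kinase JAK2 on the receptor becomes active, and STAT5 proteins are phosphorylated, enter the nucleus and bind DNA at paired TTC and GAA letters. In liver this raises Igf1 and Igfals, whose products circulate together, and Socs2 and Cish, whose products damp the receptor. In rodents the pulses of growth hormone differ between the sexes, and STAT5b carries that difference into male-biased and female-biased liver genes. In mouse liver the repressor gene Bcl6 is male-biased and Cux2 is female-biased.

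Promoter windows of the members were searched for TTCNNNGAA, the core letters of a STAT5 element, which read the same on both strands and which the related BCL6 element can overlap. The windows came from RefSeq on GRCm38.p6 and held 250 bases before and 50 after each gene start. All members other than Socs2 had 1 or more windows, 18 in total. The letters were found in 6 of these windows, from 4 genes (Prlr, Igfals, Cish and Bcl6), and in 8.30% of all 32851 windows. By gene, 9.55% of all 27025 with a window held them in 1 or more. The letters were in none of the windows of Ghr, Stat5a, Stat5b, Igf1 or Cux2, which says nothing of STAT5 binding elsewhere. A window of each measured gene that held them is shown 5′ to 3′, with the matching letters in capitals, because these are the feedback, IGF and repressor genes whose values are compared next. The Igfals and Bcl6 stretches end at the gene start, and the Cish stretch runs 20 bases past it to take in its matches.
Igfals, plus strand, chr17:24877981-24878230: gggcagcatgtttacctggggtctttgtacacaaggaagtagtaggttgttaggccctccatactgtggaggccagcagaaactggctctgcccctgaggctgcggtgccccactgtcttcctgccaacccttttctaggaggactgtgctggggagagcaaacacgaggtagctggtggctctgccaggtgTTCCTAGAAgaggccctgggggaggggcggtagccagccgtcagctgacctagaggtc
Cish, plus strand, chr9:107296409-107296678: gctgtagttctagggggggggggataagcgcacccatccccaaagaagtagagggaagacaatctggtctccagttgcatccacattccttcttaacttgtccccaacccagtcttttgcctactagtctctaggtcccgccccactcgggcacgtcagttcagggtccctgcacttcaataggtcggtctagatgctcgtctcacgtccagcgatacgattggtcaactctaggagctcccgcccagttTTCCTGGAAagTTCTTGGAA
Bcl6, minus strand, chr16:23981284-23981533: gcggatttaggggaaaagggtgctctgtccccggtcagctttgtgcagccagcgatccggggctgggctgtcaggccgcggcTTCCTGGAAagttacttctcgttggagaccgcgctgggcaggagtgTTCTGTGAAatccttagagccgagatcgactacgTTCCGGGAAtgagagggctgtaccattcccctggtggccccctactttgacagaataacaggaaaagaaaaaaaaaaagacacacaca
The Igfals stretch has 1 match, which begins 58 bases before the start. The Cish stretch has 2 matches, which begin at bases 1 and 12 of the gene. The Bcl6 stretch has 3 matches, which begin 168, 122 and 88 bases before the start. Igfals and Bcl6 each had another window with 1 match, not shown, which begins 236 and 118 bases before its own start. For Bcl6 the window shown is the one with more matches. Across all windows, 0.457% held 2 or more matches and 0.0335% held 3 or more. Each match is a description of the letters and not a bound site.

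Bcl6, Ghr and Igfals were lower in the Tmprss6-deficient liver past 1.5-fold, Stat5a was higher by just over that fold, and Igf1, Stat5b, Socs2, Cish and Cux2 lay within it. The brightest probe set on average stands for the gene, and every ratio has the Tmprss6-deficient liver on top. So 1 of 9 genes was higher and 3 of 9 were lower past 1.5-fold. Over all 12243 genes detected on 1 or both arrays, called measured, 8.94% were higher and 9.09% were lower past that fold. The median log2 ratio was 0.056 over the 9 genes and -0.0012 over all genes, and that of the members turned to -0.12 under a stricter floor. At the level of probe sets detected on both arrays, 2 of 18 were higher and 4 of 18 lower past 1.5-fold, against 10.1% and 7.98% of all 19894 such sets. In bulk liver, fewer cells of a type and less RNA per cell cannot be told apart.

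**Figure D1:**
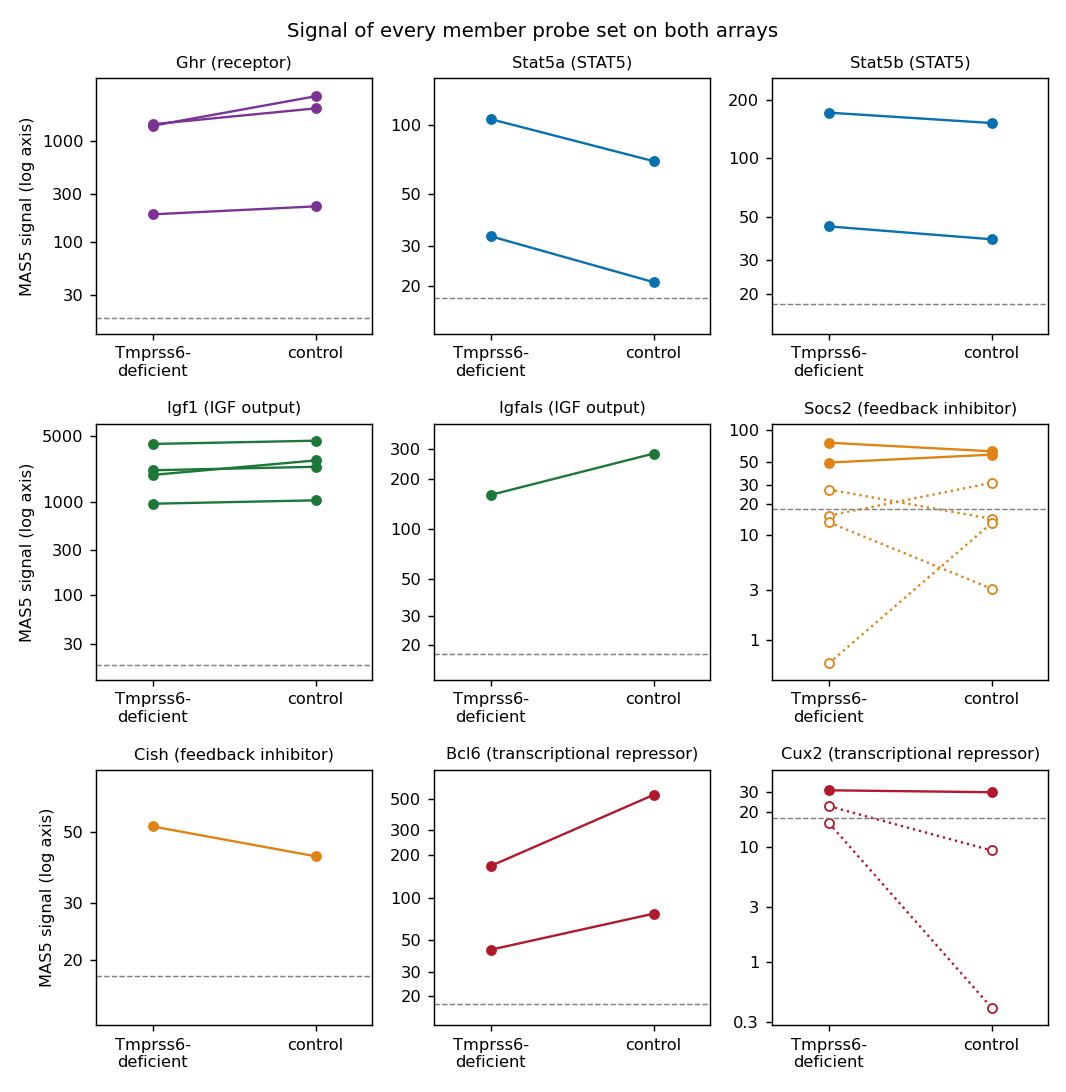
Signal (MAS5, log axis) of the 24 probe sets of 9 genes in the Tmprss6-deficient and the control liver, with a line for each probe set, filled points for sets detected on both arrays, open points and dotted lines for the others, and a dashed line at the floor of 17.8. The lines of Ghr, Igf1, Igfals and Bcl6 are all lower on the left, those of Stat5a and Stat5b all higher, and those of Socs2 cross.

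Ghr, which encodes the growth hormone receptor and, through a shorter transcript, its soluble binding protein, was lower in the Tmprss6-deficient liver on all 3 of its probe sets. Probe set 1417962_s_at read 1420.1 in the Tmprss6-deficient liver and 2778 in the control liver, 1.96-fold lower. Probe set 1451501_a_at read 1470.0 in the Tmprss6-deficient liver and 2109 in the control liver, 1.43-fold lower. These differences, -0.97 and -0.52 on the log2 scale, are both larger than the spread of 0.18 for signals of that range. The third set, 1451871_a_at, read 189 in the Tmprss6-deficient liver and 227 in the control liver, a log2 ratio of -0.26 within the spread of 0.37. Of 10243 genes detected on both arrays, 266 had a lower ratio than Ghr. Among the genes with a mean signal above 1024, 5.44% were lower past 1.5-fold. The mean over the 3 Ghr sets was -0.58 ± 0.36 (SD over probe sets, which share a sample and are not replicates), just short of 1.5-fold. Which Ghr transcripts each set reads was not analysed here.

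The STAT5 genes, adjacent on their chromosome and close in sequence, were both higher in the Tmprss6-deficient liver on every probe set, by little. Stat5a read 106 in the Tmprss6-deficient liver and 69.6 in the control liver on 1421469_a_at, 1.52-fold higher. On the dimmer 1450259_a_at it read 32.9 in the Tmprss6-deficient liver and 20.9 in the control liver, 1.58-fold higher. The log2 ratios of 0.60 and 0.66 exceed the spreads of 0.37 and 0.46 at those signals. Among genes with mean signals from 64 to 256, 7.24% were higher past 1.5-fold. With median scaling, quantile normalization and loess the Stat5a ratio was 0.53, 0.56 and 0.56, short of 1.5-fold, so that 0 members counted as higher, and it was 0.50 with the floor added as a pseudocount. Stat5b, the main STAT5 of hepatocytes, read 172 in the Tmprss6-deficient liver and 152 in the control liver on 1422103_a_at, and 44.6 in the Tmprss6-deficient liver and 38.2 in the control liver on 1422102_a_at. Its log2 ratios of 0.18 and 0.22 lie within the spread. The ratio of Stat5a exceeded that of Stat5b by 0.43, under the combined spread of 0.52 of the 2 sets. Because the genes are near-identical over long stretches, these probe sets may in part read each other's transcripts.

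**Figure D2:**
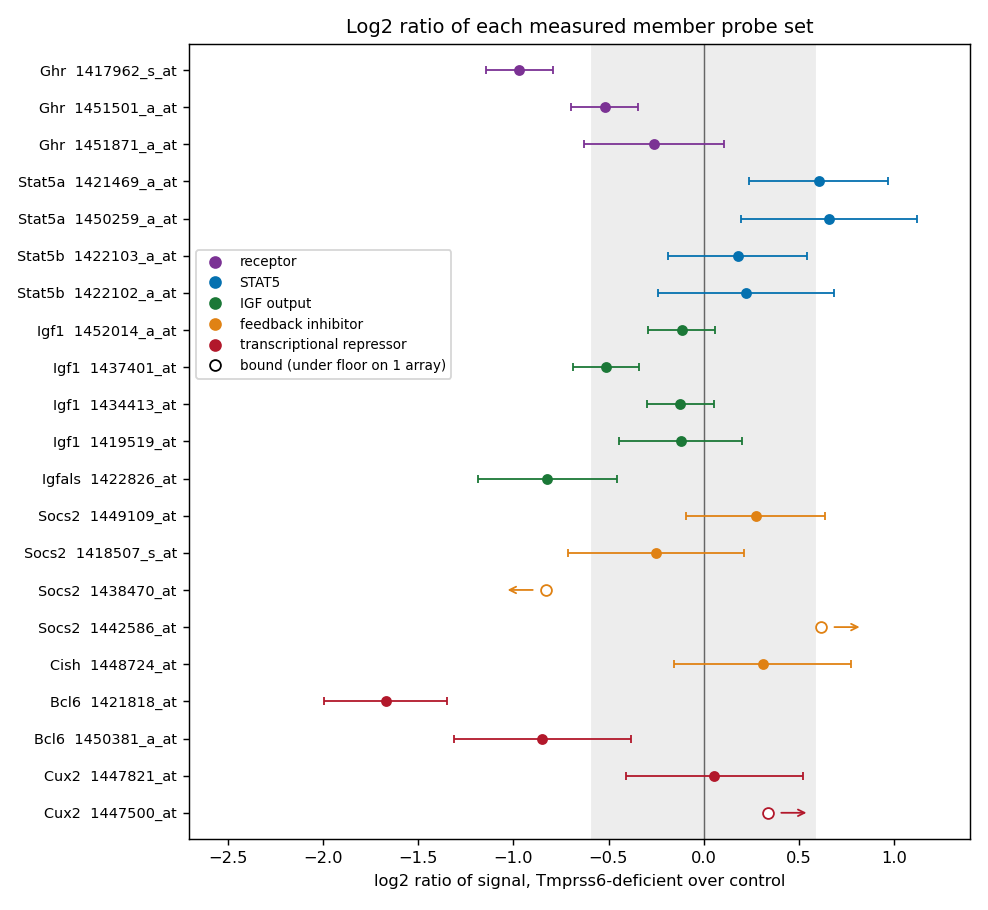
Log2 ratio (Tmprss6-deficient over control) of the 21 measured member probe sets, coloured by role, with bars of 1 SD of the spread between probe sets of a gene at that signal. Open points with arrows are bounds, and the grey band marks less than 1.5-fold; both Bcl6 sets, 1 Ghr set and Igfals lie to its left, both Stat5a sets to its right, and a bound of Socs2 on each side.

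The IGF outputs differed from each other. Igf1, the circulating growth factor that liver makes in response to growth hormone, was slightly lower in the Tmprss6-deficient liver on each of 4 probe sets. It read 4133 in the Tmprss6-deficient liver and 4477 in the control liver on 1452014_a_at, a log2 ratio of -0.12. Further sets gave a like size: 1434413_at read 2162 in the Tmprss6-deficient liver and 2356 in the control liver, and 1419519_at read 948 in the Tmprss6-deficient liver and 1031 in the control liver. These 3 ratios lie within the spread. Set 1437401_at read 1929 in the Tmprss6-deficient liver and 2753 in the control liver, 1.43-fold lower and beyond the spread of 0.18, so the sets of Igf1 share a direction and not a size. The mean over the 4 sets was -0.22 ± 0.20 (SD over probe sets). Igfals, the acid-labile subunit that holds IGF1 and its binding protein in a long-lived serum complex, read 160 in the Tmprss6-deficient liver and 283 in the control liver on its single probe set, 1.77-fold lower. Its log2 ratio of -0.82 is more than the spread of 0.37, and 8.04% of genes with mean signals from 64 to 256 were lower past 1.5-fold. On the brightest sets, the log2 ratio of Igfals minus that of Igf1 was -0.71, against a combined spread of 0.40, and that of Igf1 minus that of Ghr was 0.85, against 0.25. These gaps depend on the sets used. By the means over sets they were -0.60 and 0.37, and Igf1 set 1437401_at (-0.51) matched Ghr set 1451501_a_at (-0.52).

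The feedback inhibitors were dim on both arrays. Cish, an SH2 protein that competes with STAT5 at the receptor, read 52.1 in the Tmprss6-deficient liver and 42.0 in the control liver, a log2 ratio of 0.31 within the spread of 0.46. Socs2, whose loss causes overgrowth in mice, had 6 probe sets that did not share a direction. Its brightest set, 1449109_at, read 76.5 in the Tmprss6-deficient liver and 63.3 in the control liver, a log2 ratio of 0.27. Set 1418507_s_at read 49.5 in the Tmprss6-deficient liver and 58.8 in the control liver, a log2 ratio of -0.25. These 2 sets lie on opposite sides of 0, each within its spread. Set 1442586_at was detected only in the Tmprss6-deficient liver (27.3, against 14.4 in the control liver), at least 1.53-fold higher. Set 1438470_at was detected only in the control liver (15.4 in the Tmprss6-deficient liver, 31.7 in the control liver), at least 1.78-fold lower. The remaining sets, 1441476_at and 1446085_at, went undetected on both arrays, at 13.3 and 0.60 in the Tmprss6-deficient liver and 3.1 and 13.1 in the control liver, and get no ratio.

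Bcl6 had the largest difference of the measured members. This zinc-finger repressor gene read 168 in the Tmprss6-deficient liver and 534 in the control liver on 1421818_at, 3.18-fold lower. On 1450381_a_at it read 42.9 in the Tmprss6-deficient liver and 77.1 in the control liver, 1.80-fold lower. Both sets were lower beyond their spreads, with log2 ratios of -1.67 against 0.32 and -0.85 against 0.46. Only 42 of 10243 genes had a lower ratio than Bcl6 on its brighter set. Of all measured genes 2.78% were lower past 2-fold, and of genes with mean signals of 256 to 1024, 4.24% were lower past 1.5-fold. Cux2 was near the floor in both males: 1447821_at read 30.9 in the Tmprss6-deficient liver and 29.8 in the control liver, a log2 ratio of 0.056 that turned to the other side of 0 with median scaling (-0.012) and quantile normalization (-0.017). Set 1447500_at was detected only in the Tmprss6-deficient liver (22.5, against 9.3 in the control liver), at least 1.26-fold higher. Set 1450181_at, at 16.1 in the Tmprss6-deficient liver and 0.40 in the control liver, went undetected on both arrays.

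**Figure D3:**
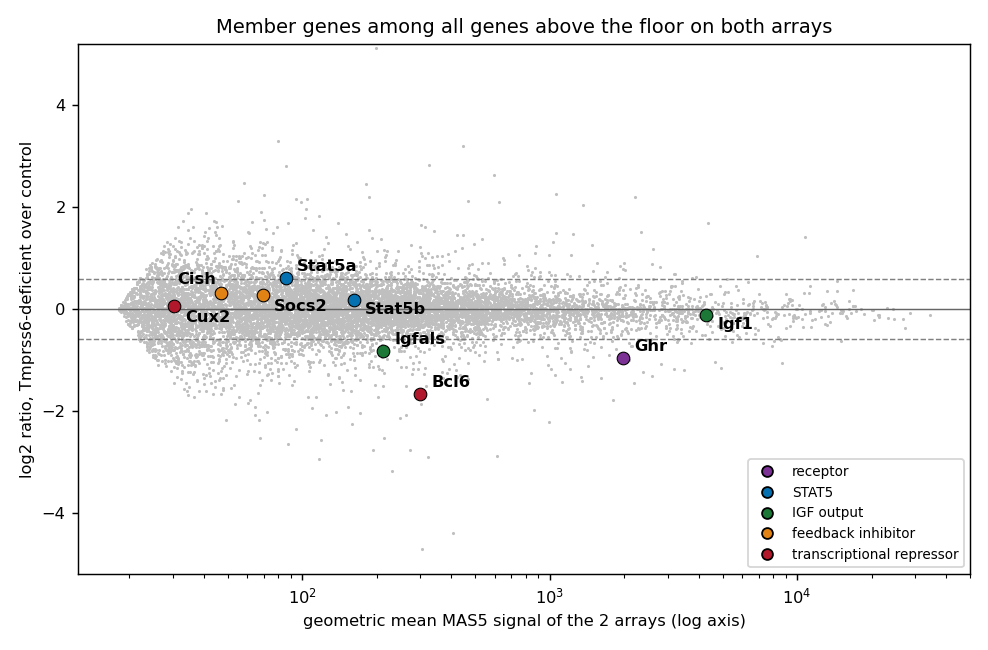
Log2 ratio (Tmprss6-deficient over control) against the geometric mean signal (log axis) of 10243 genes detected on both arrays in grey, with the 9 measured members in colour by role and dashed lines at 1.5-fold. Bcl6 (-1.67), Ghr (-0.97) and Igfals (-0.82) lie below the lower line, Stat5a lies at the upper line, and Igf1 (-0.12) lies near 0 at a high signal.

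The signalling genes between receptor and STAT5 were read next, beside other inhibitor and STAT genes. Of 15 measured kinases, phosphatases and adaptors, 1 was higher and 0 were lower past 1.5-fold, with a median log2 ratio of 0.13. The share higher, 6.67%, is near the 8.94% of all measured genes, while 9.09% of all measured genes were lower. The one past that fold, the kinase gene Src, is a bound at a dim signal and was named after its value was seen. Its brighter set was at least 1.79-fold higher, while its other set, at 4.1 in the Tmprss6-deficient liver and 27.0 in the control liver, was at least 1.51-fold lower, so the gene has no shared direction. Jak2, the kinase on the receptor, read 163 in the Tmprss6-deficient liver and 118 in the control liver, a log2 ratio of 0.47, with its dimmer set at -0.13. The adaptor gene Sh2b1 had a ratio of 0.30. Sirpa (-0.49) and the phosphatase gene Ptpn1 (-0.26) each had a second set on the opposite side of 0. Among 11 other measured SOCS, PIAS and Grb inhibitor genes, 1 was higher and 1 was lower, with a median of -0.044. These shares, 9.09% each, are near the 8.94% and 9.09% of all measured genes. Socs3, a feedback inhibitor of STAT3, read 52.2 in the Tmprss6-deficient liver and 108 in the control liver on its brightest set, 2.07-fold lower, while its other sets read 62.6 and 38.7 in the Tmprss6-deficient liver and 59.4 and 38.6 in the control liver. Socs5 was 2.22-fold higher on its brighter set at a dim signal, with the other at -0.43, Socs4 had a ratio of 0.49 and Grb10 a ratio of -0.45. Of 3 other measured STAT genes, 1 was higher (33.3%, against 8.94% of all measured genes) and 0 were lower (against 9.09%) past 1.5-fold. Stat3 was 1.81-fold higher on its brightest set with 1 of 4 sets lower, and Stat6 had a ratio of 0.18. Stat2 had a ratio of -0.19, with its dimmer set 2.17-fold lower.

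The partners of IGF1 were read in the same way. Of 11 measured genes of the IGF system, 2 were higher (18.2%, against 8.94% of all genes) and 0 were lower (against 9.09%) past 1.5-fold. The other 9, all detected on both arrays, lay within it, as did 84.1% of all 10243 genes detected on both arrays. The median log2 ratio was -0.16. Igfbp3, which joins IGF1 and the acid-labile subunit in the serum complex, read 221 in the Tmprss6-deficient liver and 248 in the control liver, a log2 ratio of -0.16, with its second set at -0.066. Igfbp1, a binding protein gene that fasting raises, read 6853 in the Tmprss6-deficient liver and 7767 in the control liver, a ratio of -0.18. Igfbp2 read 5013 in the Tmprss6-deficient liver and 6026 in the control liver, a ratio of -0.27, beyond the spread of 0.18 at that signal. Igfbp7 had a ratio of 0.20 on its brightest set, while a dimmer set, at 15.6 in the Tmprss6-deficient liver and 42.6 in the control liver, was at least 2.39-fold lower. The receptor gene Igf1r had a ratio of -0.27 at a dim signal, with another set at 0.39. The genes counted as higher are Igf2 and Igfbp5, both bounds: Igf2 read 28.9 in the Tmprss6-deficient liver and 15.2 in the control liver, and Igfbp5, named after its value was seen, read 44.5 in the Tmprss6-deficient liver and 1.9 in the control liver with its other set at 18.8 in the Tmprss6-deficient liver and 19.0 in the control liver. Of the genes for the 3 parts of the serum complex, Igfals alone was lower past 1.5-fold, and Igf1 and Igfbp3 lay within it.

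Male-biased liver genes, many of which depend on growth hormone pulses, were lower in the Tmprss6-deficient liver on the brightest set of each. Of 17 measured, 13 were lower and 0 were higher past 1.5-fold, with a median log2 ratio of -1.03 and a highest ratio of -0.22. The share lower was 76.5%, against 9.09% of all genes. Of their 24 measured probe sets 21 were below 0, and the exceptions were dimmer sets of Nudt7, 1.66-fold and 1.36-fold higher against 2.00-fold and 2.12-fold lower on its brighter ones, and of Cyp2u1, at least 1.28-fold higher. Both genes were named after their values were seen. Serpina12 (vaspin) read 118 in the Tmprss6-deficient liver and 879 in the control liver, 7.46-fold lower on its 1 measured set. Moxd1, named after its value was seen, read 3.9 in the Tmprss6-deficient liver and 825 in the control liver and was at least 46.3-fold lower. Ugt2b38 and Hsd3b5 were 7.68-fold and 5.80-fold lower, and Slco1a1 was 2.52-fold and 2.80-fold lower on its 2 sets. Of 12 measured female-biased genes, 6 were higher (50%, against 8.94% of all genes) and 4 were lower (33.3%, against 9.09%) past 1.5-fold. Some of these are bounds: among the 9 genes detected on both arrays, 4 were higher and 3 were lower. The median was 0.38, or 0.064 over those detected on both arrays. Hamp2 was 2.80-fold higher, though its probes may also read hepcidin itself, Cyp39a1 was 2.75-fold and Cyp17a1 2.14-fold higher, and Ntrk2 was 2.50-fold lower. The low values of Cyp2b9 (16.2 in the Tmprss6-deficient liver, 6.4 in the control liver) and Sult2a2 (1.7 in the Tmprss6-deficient liver, 8.0 in the control liver), chosen after their values were seen, leave these female-biased genes undetected in both males. So were 7 of the 19 on the array, a share near that of all named genes, of which 5950 of 18193 went undetected on both arrays. Direction in both lists was partly known from earlier results on these arrays, so it is no independent support. Whether the values of Bcl6 or Ghr bear on either list was not tested.

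**Figure D4:**
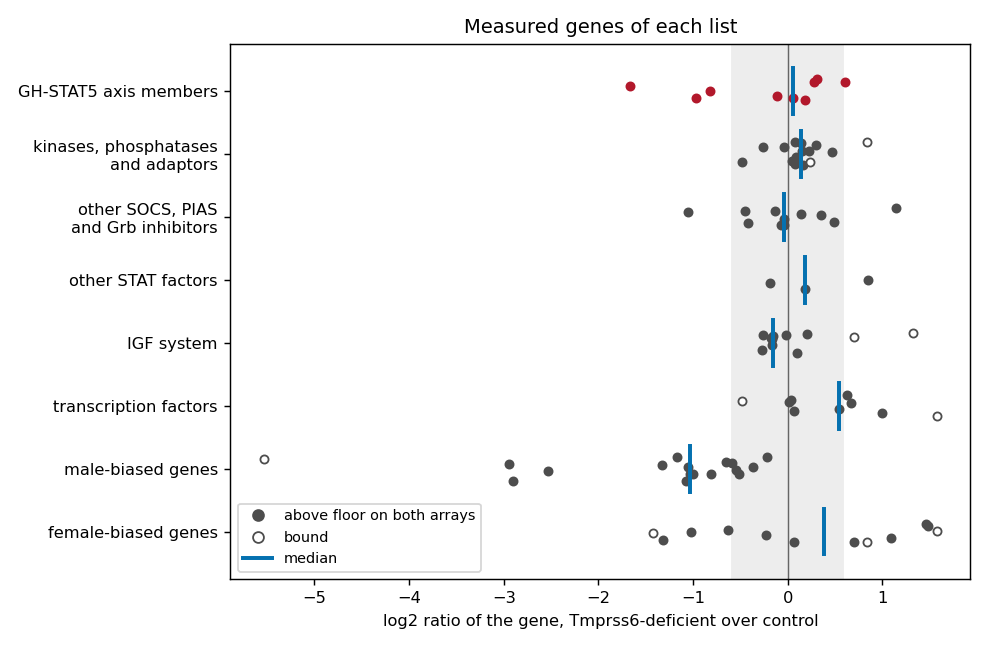
Log2 ratio (Tmprss6-deficient over control) of the measured genes of each list, with filled points for genes detected on both arrays, open points for bounds, blue bars at the medians and a grey band for less than 1.5-fold. The medians run from -1.03 for male-biased genes to 0.54 for transcription factors, and the 9 axis members spread from -1.67 to 0.60.

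Transcription factors that work with STAT5 or differ by sex in liver held more higher than lower values in the Tmprss6-deficient liver. Of 9 measured, 4 were higher (44.4%, against 8.94% of all genes) and 0 were lower (against 9.09%) past 1.5-fold, with a median log2 ratio of 0.54, or 0.19 with the mean of all sets of a gene. Hnf4a, a master regulator of hepatocytes, read 4856 in the Tmprss6-deficient liver and 3144 in the control liver on its brightest set, 1.54-fold higher, and its other 3 sets were 1.94-fold, 2.26-fold and 2.65-fold higher. Foxa2, a pioneer factor, read 250.1 in the Tmprss6-deficient liver and 126 in the control liver, 1.99-fold higher, and the oestrogen receptor gene Esr1 was 1.59-fold higher. Trim24 had a ratio of 0.54, with a dimmer set at -0.085. Onecut1, a hepatocyte factor gene, was detected only in the control liver (15.6 in the Tmprss6-deficient liver, 24.9 in the control liver). Tox, a female-biased factor gene that is also on the female-biased list and was named after its values were seen, was detected only in the Tmprss6-deficient liver on all 3 sets, at least 2.98-fold higher on the brightest (53.1, against 14.3 in the control liver).

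Markers of other liver cells were read beside these values. Over all measured genes, 10036 of 12243 were not counted as past 1.5-fold, some of them bounds. Of the 10243 genes detected on both arrays, 84.1% lay within it. The 5 measured hepatocyte markers all lay within 1.5-fold, with summed signals of 107229 in the Tmprss6-deficient liver and 116314 in the control liver. Of 7 Kupffer cell and macrophage markers, 1 was higher (14.3%, against 8.94% of all genes) and 3 were lower (42.9%, against 9.09%) past 1.5-fold. Their sums were 1374 in the Tmprss6-deficient liver and 1911 in the control liver. Of 7 endothelial markers, 1 was higher (14.3%) and 2 were lower (28.6%), with sums of 1128 in the Tmprss6-deficient liver and 1230.4 in the control liver. Of these 7, 5 had a log2 ratio above 0 and 2 below it, with a median of 0.14, so the lower sum is not a shared direction. They lay far apart: Lyve1 was 4.72-fold higher, Clec4g 1.98-fold lower and Kdr 1.55-fold lower, all 3 named after their values were seen. The 5 stellate cell and fibroblast markers detected on both arrays lay within 1.5-fold. The remaining one, Col1a1, named after its value was seen, was detected only in the control liver, at least 1.20-fold lower. All 6 summed to 2388 in the Tmprss6-deficient liver and 1985 in the control liver. Lymphocyte markers summed to 89.0 in the Tmprss6-deficient liver and 88.3 in the control liver and neutrophil markers to 145 in the Tmprss6-deficient liver and 152 in the control liver. Only 2 of 6 lymphocyte and 4 of 6 neutrophil markers on the array were detected in both livers. Both sums therefore hold values under the floor and are not levels to compare. Of 3 measured cholangiocyte markers, all bounds, 0 were higher and 1 was lower (33.3%, against 9.09% of all genes) past 1.5-fold. The 4 on the array all went undetected in the Tmprss6-deficient liver, where only 22773 of the array's 45101 sets, controls aside, were detected. Their sums (41.4 there and 100.4 in the control liver) are therefore not levels to compare. Of these the defining markers Cd3e and Cd3g of T cells and Camp and Mpo of neutrophils went undetected on both arrays, and Sox9 of cholangiocytes too. The Kupffer cell sum was lower in the Tmprss6-deficient liver, but its markers did not share a direction. Of the 7, 5 had a log2 ratio below 0 and 2 above it. Those 2, Marco (1.76-fold higher) and Adgre1 (1.03-fold higher), were named after their values were seen. The part of these cells in the lower values of Bcl6, Ghr and Igfals was not tested.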

How the data were processed

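Total liver RNA, purified on columns, was copied to cDNA and then to biotin-labelled RNA by in vitro transcription, per the labels' protocols. The authors deposited linear intensity signals for each probe set, which MAS5 produced according to the submitters' processing notes, with version, settings and genome build not given in the sources used here. Here each array was scaled to a shared mean (2% of sets trimmed at each end), which moved values by under 1 in 100. Signals below 17.8, the median over all sets but 64 controls, were raised to it before taking log2 (Python 3.11.15, pandas 2.3.3, numpy 2.4.6). A set detected on 1 array yields a bound, and a set detected on neither yields no ratio. In the platform annotation 34958 of 45101 sets carry a single symbol, 932 carry several and 9211 do not appear. RefSeq of GRCm38.p6 held the gene ID of 34754 sets and altered 0 symbols. For the spread, the log2 ratios of the 2 brightest sets of each of 4367 genes were subtracted, and the SD of these differences was divided by the square root of 2, within ranges of their mean signal.

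With 1 array per group no test and no p-value is possible. Detection calls and saturation were not used here. The calculation was tested on simulated data, with changes set only in brighter genes detected on both arrays and noise drawn from the spread used here. It therefore did not check dim genes, bounds or variation between animals. The members and gene lists were chosen with earlier results of these data known. The text names Tmprss6, every member, from each further list up to 4 genes detected on both arrays with the largest ratios, and Jak2, Socs3, Stat3, Igf2, Igf1r, Igfbp1, Igfbp2, Igfbp3 and Onecut1. Marker lists are given as sums. No gene is named for likeness to a member, since 2 arrays give each gene 1 difference. Alb, the undetected markers and genes marked so in the text were chosen after their values were seen. Alternatives covered the scaling (median, none, quantile, loess), the floor (30th or 70th percentile, or added as a pseudocount), the reading of a gene (mean of its detected sets, only sets whose ID has no _s, _x or _a suffix, only genes detected on both arrays) and a threshold of 2-fold.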

Additional observations from a re-analysis of the deposited data

How the results depend on the processing

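Bcl6, Igfals and Igf1 kept their direction and their side of 1.5-fold in all 10 alternatives that gave them a value, with log2 ratios from -1.74 to -1.26, from -0.89 to -0.76 and from -0.51 to -0.045. Ghr kept its direction in 9 of 9, from -1.04 to -0.58, and passed 1.5-fold in 8 of them, the exception being the mean of its sets. Stat5a kept its direction in 9 of 9, from 0.50 to 0.63. Socs2 was at -0.047 with the mean of its sets. Ghr, Stat5a and Stat5b have no set without a suffix. Signal over background left 3 of the 24 member sets with no ratio and 3 with a bound.

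Counts and medians moved as follows, where the lower and higher floor are the 30th and 70th percentile of all signals. A count is listed where it changed by more than 1.5 times, or to or from 0. A median is listed where it changed by at least the spread over all signals divided by the square root of the number of genes. The members' count of higher genes (1) was 0 with median scaling, quantile normalization, loess, the floor as a pseudocount, sets without a suffix and a 2-fold threshold. Their count of lower genes (3) was 1 at 2-fold, and 2, a smaller change, with the mean of all sets and with sets without a suffix. Their median (0.056) was -0.12 with the higher floor and -0.23 with sets without a suffix, where fewer genes remained. For kinases, phosphatases and adaptors, the count of higher genes (1) was 2 with the lower floor and 0 with the higher floor, the mean of all sets, sets without a suffix, detection on both arrays and 2-fold, and the count of lower genes (0) was 1 with sets without a suffix. For other inhibitors, the count of higher genes (1) was 0 with the higher floor and the mean of all sets, and the count of lower genes (1) was 2 with the lower floor and 0 with the mean of all sets and sets without a suffix. For other STAT genes, the count of higher genes (1) was 2 with the lower floor and 0 with the mean of all sets and at 2-fold, and the count of lower genes (0) was 1 with the mean of all sets. For the IGF system, the count of higher genes (2) was 1 with the lower floor, the floor as a pseudocount, sets without a suffix and 2-fold, and 0 with the higher floor and detection on both arrays. For transcription factors, the count of higher genes (4) was 1 at 2-fold, the count of lower genes (0) was 1 with the lower floor, and the median (0.54) was 0.30 with the higher floor and 0.19 with the mean of all sets. For female-biased genes, the count of lower genes (4) was 2 with sets without a suffix, and the median (0.38) was 0.64 and 0.035 with the lower and higher floor, 0.26 with the mean of all sets, 0.70 with sets without a suffix and 0.064 with detection on both arrays. The causes were not tested. The male-biased count of lower genes stayed within 1.5 times of 13 in all of these, and the female-biased count of higher genes (6) ranged from 4 to 9. Over all genes, 1094 higher and 1113 lower became 2522 and 2471 with the lower floor, 450 and 508 with the higher floor, and 293 and 340 at 2-fold. No paired analysis was possible because each group has 1 array.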
